A study of Mus musculus with 23 samples.

Results

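THRAP3 was mapped by ChIP-seq in 4 libraries of a mouse β-cell line, and 482 of the 808 peaks in the first WT library overlapped by at least 1 bp a peak in each of the other 3 libraries. These 482 shared peaks were chosen by the peak calls themselves, so their presence and strength are described here and were not tested. The cells were β-TC6, an insulinoma line derived from transgenic mice, and the question behind the libraries was how the circadian clock shapes transcription and splicing in β cells. ChIP-seq was done in WT cells (n = 2) and in Bmal1-/- cells (n = 2), which carry a CRISPR-Cas9 deletion of exon 8 of Bmal1. RNA-seq was done in WT (n = 3), Bmal1-/- (n = 3) and Clock-/- (n = 3) cells, the last with a deletion of exons 6 to 7 of Clock. Each knockout line was a selected clone, so genotype and clone cannot be told apart.

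THRAP3 (thyroid hormone receptor-associated protein 3) is an RNA-binding nuclear protein that acts in splicing and as a co-factor of transcription. In ChIP-seq, chromatin that is crosslinked to a protein is recovered with an antibody, and a peak is a stretch of the genome where the recovered DNA fragments, counted as tags, pile up over the input chromatin. The FOS and JUN proteins form the AP-1 factors, which bind the letters TGACTCA. NRF2 pairs with small MAF proteins on the antioxidant response element, TGACNNNGC, beside genes such as Hmox1, Gclm and Gclc.

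Shared peaks with the most tags fell into a few kinds by sequence. The sequences shown first are of the AP-1 or antioxidant response element kind beside 4 genes, given as the + strand of mm10 from 5′ to 3′. All but the Gclc peak (mean tags 65.9) are among the 10 shared peaks with the highest mean tags. A peak of the same kind before Ebf2 (mean tags 99.5) is also among the 10 and is not shown. Capitals mark matches to either motif on either strand, with overlapping or adjoining matches run together. For Gclm, a subunit of the enzyme that starts glutathione synthesis, only the 29 bases about the match are shown, at chr3:122245642-122245670, since the peak reaches a UTR. Hmox1, which breaks down heme, had a distal peak at chr8:75083820-75084032 and a nearer one at chr8:75089610-75089822. Gclc, the catalytic subunit of the same enzyme as Gclm, had its peak at chr9:77750623-77750835, and Myo18b, a myosin, had an intronic peak at chr5:112761680-112761892.
Gclm: tgaggtttctGCTTAGTCAttgtcttcca
Hmox1 distal: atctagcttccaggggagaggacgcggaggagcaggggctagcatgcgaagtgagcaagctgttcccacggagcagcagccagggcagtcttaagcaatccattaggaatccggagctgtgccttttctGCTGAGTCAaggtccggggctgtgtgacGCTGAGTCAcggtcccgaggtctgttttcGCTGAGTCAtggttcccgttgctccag
Hmox1 near: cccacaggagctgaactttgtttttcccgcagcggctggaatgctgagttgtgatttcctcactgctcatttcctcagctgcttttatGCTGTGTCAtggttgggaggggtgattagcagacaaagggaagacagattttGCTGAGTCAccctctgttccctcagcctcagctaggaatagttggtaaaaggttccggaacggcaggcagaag
Gclc: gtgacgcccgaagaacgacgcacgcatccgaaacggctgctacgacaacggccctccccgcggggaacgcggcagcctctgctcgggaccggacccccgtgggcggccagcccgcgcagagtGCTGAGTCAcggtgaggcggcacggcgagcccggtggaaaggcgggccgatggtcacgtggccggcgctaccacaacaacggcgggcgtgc
Myo18b: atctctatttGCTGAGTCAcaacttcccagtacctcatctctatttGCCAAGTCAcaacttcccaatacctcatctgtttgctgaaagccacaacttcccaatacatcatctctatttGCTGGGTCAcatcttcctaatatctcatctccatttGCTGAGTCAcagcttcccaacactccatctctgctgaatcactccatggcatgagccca

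The sequences of the other 2 kinds are shown because they carry high tags without either motif. In the first 3, capitals mark runs of ACAACAACA or its reverse complement. They lie 55755 bp before Ezh2, which encodes a histone methyltransferase of the Polycomb complex, at chr6:47650990-47651202, 122 bp before Dnajc12, a co-chaperone, at chr10:63386335-63386547, and 296 bp before Gm11992 at chr11:9048192-9048404. The last, at chr19:4046044-4046256, lies 127 bp before Gstp2, a glutathione transferase, and held no match to either motif or the repeat. Gstp2 has near-identical paralogs, so tags there cannot be placed with certainty.
Ezh2: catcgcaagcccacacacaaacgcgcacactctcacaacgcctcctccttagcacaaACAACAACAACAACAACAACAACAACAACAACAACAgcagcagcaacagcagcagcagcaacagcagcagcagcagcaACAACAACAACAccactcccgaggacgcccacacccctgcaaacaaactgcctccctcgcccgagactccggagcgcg
Dnajc12: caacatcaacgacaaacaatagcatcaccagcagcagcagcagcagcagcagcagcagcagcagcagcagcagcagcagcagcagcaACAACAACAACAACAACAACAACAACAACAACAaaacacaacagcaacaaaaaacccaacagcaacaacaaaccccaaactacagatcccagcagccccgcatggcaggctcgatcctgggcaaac
Gm11992: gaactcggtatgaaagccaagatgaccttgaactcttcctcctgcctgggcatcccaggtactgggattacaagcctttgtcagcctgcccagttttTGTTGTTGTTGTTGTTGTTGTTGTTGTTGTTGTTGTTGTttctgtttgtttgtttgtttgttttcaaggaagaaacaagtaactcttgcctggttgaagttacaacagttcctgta
Gstp2: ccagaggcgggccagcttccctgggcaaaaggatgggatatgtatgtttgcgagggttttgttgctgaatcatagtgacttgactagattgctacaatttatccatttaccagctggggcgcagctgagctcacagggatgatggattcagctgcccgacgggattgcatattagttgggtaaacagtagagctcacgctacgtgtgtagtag

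Peak numbers differed widely between libraries. The first WT library had 808 peaks, the second 6128, and the Bmal1-/- libraries 12949 and 12226, from 12296107 to 14961095 tags per library. The share of tags inside peaks was 0.111% in the first WT library and 0.760% in the second, against 1.86% and 1.67% in Bmal1-/-. The first WT library therefore limits the set, and the shared peaks make up 59.7% of its list but 7.87%, 3.72% and 3.94% of the other 3 lists. In RNA-seq, Ins2, Iapp, Pdx1, Nkx6-1, Mafa and Slc30a8 were present in all 9 libraries, and Ppy, Sox9, Col1a1, Pecam1 and Ptprc reached at most 1.46 TPM (the share of transcripts, scaled by gene length). The acinar marker Cela1 ranged from 1.09 to 8.43 TPM, with the highest mean in WT (8.04), and its part in the results was not tested. Gcg (glucagon) ranged from 49.4 to 1308 TPM and Sst (somatostatin) from 16.8 to 373 TPM, and Ins1 was low in Clock-/- cells. Thrap3 mRNA did not pass the test in Bmal1-/- (log2 fold change −0.04, adjusted p = 0.852) or in Clock-/- cells (−0.07, adjusted p = 0.747). Gene-level TPM does not check an exon deletion, and Arntl, the annotation's name for Bmal1, had a log2 fold change of −0.11 in Bmal1-/- cells (adjusted p = 0.539) and Clock one of −0.33 in Clock-/- cells (adjusted p = 0.137).

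Motifs were matched letter for letter on both strands in the 213 bp about the centre of each peak. TGACTCA was found in 182 shared peaks (37.8%), TGACNNNGC in 188 (39.0%), either in 243 (50.4%) and both in 127 (26.3%). The motifs share their first letters, so the same stretch can match both when GC follows the AP-1 letters, and the longer GCTGAGTCA, which holds a match to each, was in 107 (22.2%). This last motif and the repeat were chosen after seeing the data.

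The same search gave lower shares elsewhere. TGACTCA was in 19.3% of the 326 peaks of the first WT library that were not shared, in 15.7% of 1817 peaks found in the other 3 libraries but not in it, and in 7.74% of 12462 peaks of the first Bmal1-/- library that overlap no shared peak. It was in 3.73% of windows placed 5000 bp to the right of the shared peaks and in 2.94% of the windows at the starts of 21853 protein-coding genes. For TGACNNNGC the shares were 21.8%, 19.6%, 13.7%, 5.81% and 10.2% in the same order. For GCTGAGTCA they were 10.1%, 6.16%, 2.23%, 0.207% and 0.215%. A match is a run of letters and was not tested for binding.

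**Figure D1:**
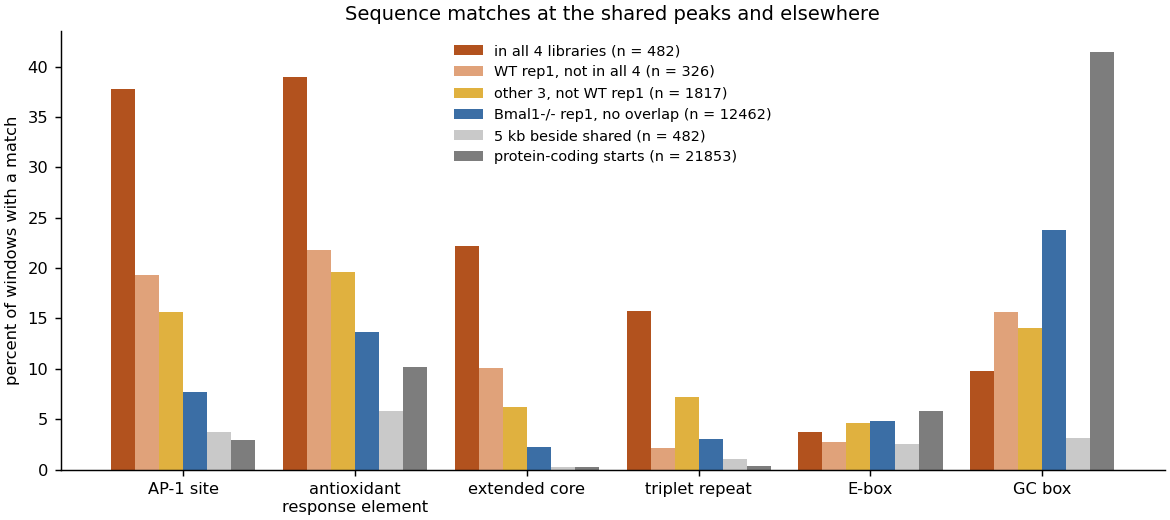
The vertical axis gives the percentage of 213-bp windows with a match, for 6 motifs (the extended core is GCTGAGTCA and the triplet repeat ACAACAACA), and each bar is 1 set of windows. The 482 shared peaks stand highest for the AP-1 site (37.8%) and the antioxidant response element (39.0%).

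CACGTG, the E-box of CLOCK-BMAL1, was in 18 of the 482 peaks (3.73%), against 5.82% of gene starts and 2.49% of the windows 5000 bp away. In the other 3 sets of peaks, in the order given above, it was in 2.76%, 4.62% and 4.77%. The GC box GGGCGG, common at gene starts (41.4%), was in 47 shared peaks (9.75%), above the 3.11% of the windows 5000 bp away. In the other 3 sets of peaks it was in 15.6%, 14.1% and 23.8%. The ETS letters CCGGAAGT were in 1 shared peak (0.207%), in 0 of the windows 5000 bp away and in 4.55% of gene starts. In the other 3 sets of peaks they were in 0%, 1.16% and 1.90%. The repeat ACAACAACA was in 76 (15.8%), against 2.15% of the other peaks of the first WT library, 7.21% of the peaks of the other 3 libraries and 0.348% of gene starts. By these matches 243 peaks held an AP-1 or antioxidant motif, 71 (14.7%) held the repeat alone and 168 (34.9%) neither, and 5 held the repeat with a motif.

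Matches lay near the centres. Of 400 AP-1 matches within 500 bp of a shared peak's centre, 190 (47.5%) lay within 50 bp of it, against 32.7% at the peaks of the other 3 libraries and 21.1% at the remaining peaks of the first Bmal1-/- library. For the antioxidant element it was 185 of 464 (39.9%), against 23.5% and 16.4%. For the repeat it was 60.0%, against 51.5% and 46.0%, with each overlapping match in a run counted. The centres of 1 peak in the 4 libraries spread by a median of 85 bp, and for 112 peaks by at most 50 bp.

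**Figure D2:**
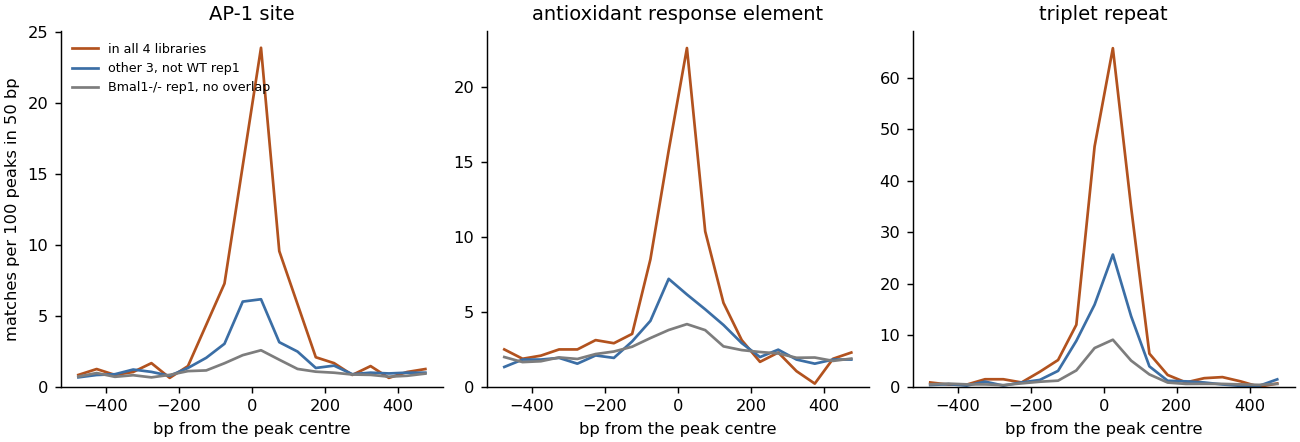
Each panel gives, for 1 motif, matches per 100 peaks in 50-bp bins against the distance from the peak centre in bp, with a line for each set of peaks and a vertical scale of its own. At the shared peaks, 47.5% of AP-1 matches within 500 bp lay within 50 bp of the centre.

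Most shared peaks lay away from gene starts. A centre from 1000 bp before to 100 bp after an annotated start was counted as a promoter, which held 80 peaks (16.6%), against 33.0% of the remaining peaks of the first Bmal1-/- library. Introns held 215 (44.6%), intergenic sequence 168 (34.9%), untranslated exons 8 (1.66%), noncoding exons 7 (1.45%) and coding exons 4 (0.830%). The median distance to the nearest protein-coding start was 23915.5 bp, with 67 peaks (13.9%) within 1 kb and 109 (22.6%) over 100 kb away. For the peaks of the other 3 libraries the median was 27081 bp, so a place far from starts was not particular to the shared peaks. It was 15102.5 bp for the other peaks of the first WT library and 12492 bp for the remaining peaks of the first Bmal1-/- library. The promoter share was 10.3% of the 243 peaks with a motif, 11.3% of the 71 with the repeat alone and 28.0% of the 168 with neither. Coding-exon peaks are few and include 2 of the 3 peaks inside Per2 described in the closing section.

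**Figure D3:**
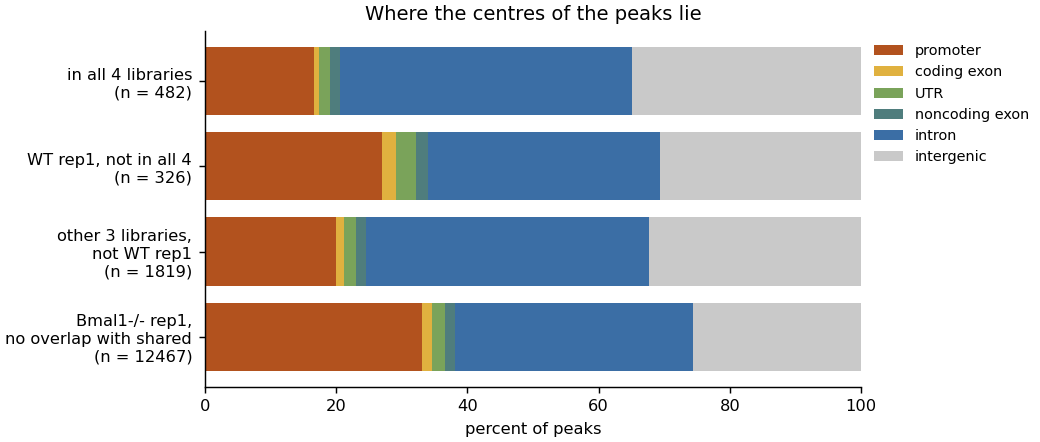
Each horizontal bar splits 1 set of peaks by where the centre lies, on an axis of percent of peaks. The shared peaks have 16.6% in promoters, less than the first Bmal1-/- library's remaining peaks (33.0%).

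In base composition the peaks were at 46.7% G+C, against 50.4% in the other peaks of the first WT library. The share of soft-masked bases, which mark repeats in the reference, was 18.1% over the set, 10.8% in those other peaks and 27.6% in the windows 5000 bp away. By kind, the median peak was 7.98% soft-masked where a motif was present, 55.9% where the repeat alone was present and 2.11% with neither. Chromosome 5 carried 47 shared peaks and chromosomes 1, 3 and 4 carried 36 each. Of 454 nearest protein-coding genes, 26 had more than 1 shared peak, with 3 each at Bicdl1 and Mbnl2.

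Tags are given scaled by HOMER to the same total in every library. Over the 482 peaks the median was 12.2 in the first WT library, 21 in the second and 27.5 and 26.7 in the Bmal1-/- libraries. Peaks with the repeat alone had medians of 14.6, 29.5, 36.9 and 37.4, those with an AP-1 or antioxidant motif 13, 21.7, 29.1 and 28.1, and those with neither 10.6, 17.9, 23.6 and 23.4. The first WT library was the lowest of the 4 in all 3 kinds.

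**Figure D4:**
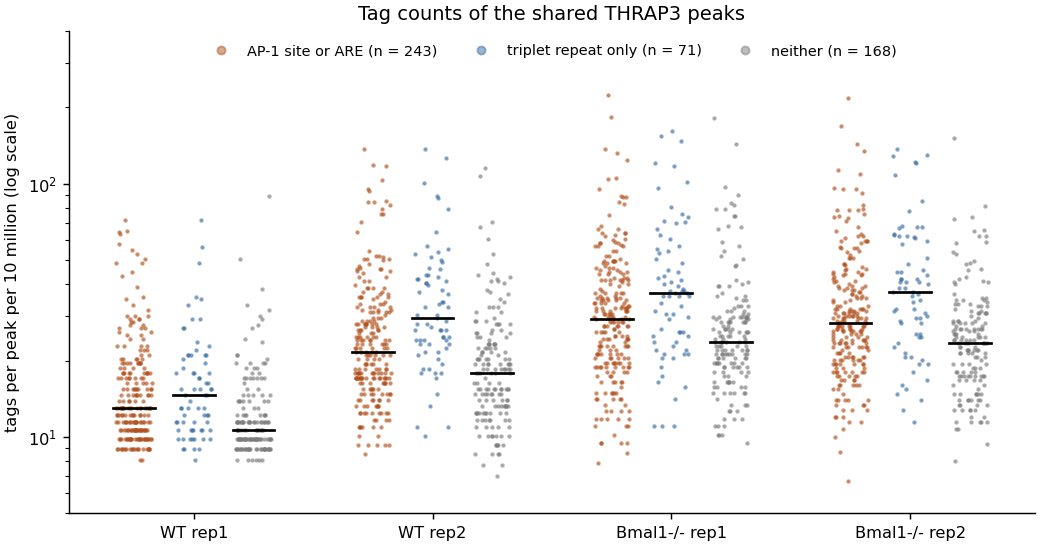
Each point is 1 of the 482 shared peaks, the vertical axis gives scaled tags per peak on a log scale, and black lines mark medians for each kind of sequence in each library. Medians were lowest in the first WT library (12.2 over all peaks) and near each other in the Bmal1-/- libraries (27.5 and 26.7).

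The highest peak, at the start of Gclm, had 64.2 and 118.8 tags in WT and 224.6 and 217.2 in Bmal1-/-, so that both Bmal1-/- libraries lay above both WT libraries. The distal Hmox1 peak had 71.6 and 136.6 in WT against 183.0 and 168.4, and the nearer one 52.9 and 85.4 against 136.6 and 135.0. Gclc had 29.3 and 70.6 against 84.8 and 78.9. In each of these 4 the groups did not overlap, with the Bmal1-/- libraries higher, as in 328 of the 482 shared peaks.
The Ezh2 peak had 71.6 and 137.4 in WT and 147.6 and 137.0 in Bmal1-/-, where the groups overlapped. Gm11992 had 56.1 and 126.5 against 153.9 and 129.0, Dnajc12 29.3 and 100.9 against 161.0 and 130.3, and Gstp2 50.4 and 114.9 against 142.9 and 151.1. A further repeat peak, in an intron of Cog7 and 28729 bp after the start of Scnn1b (an epithelial sodium channel subunit), had 48.8 and 87.7 against 117.0 and 120.3. The remaining peaks among the 10 highest were Myo18b, with 50.4 and 117.2 against 132.7 and 143.0, and one 44463 bp before Ebf2, an early B-cell factor, with 57.7 and 103.2 against 124.1 and 113.0.

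The median log2 ratio of Bmal1-/- over WT mean tags was 0.69 (interquartile range 0.37 to 0.93), and 445 of 482 peaks were higher in the Bmal1-/- mean. Both Bmal1-/- libraries lay above both WT libraries in 328 peaks and below both in 7. The ratio was 0.36 without the first WT library, 1.06 without the second, 0.23 as fold over input, and −0.041 once the median of the shared peaks was set equal in each library. No test was made with 2 libraries a genotype, and the share of tags in peaks, given above, differed between genotypes in the same direction. Peaks outside the set lack a value in at least 1 library, so no background share can be given beside these counts. The spread between the WT libraries was larger still, with a median log2 difference of 0.71 against −0.02 between the Bmal1-/- libraries. Over the 482 peaks the Spearman rho of tags was 0.754 between the WT libraries, 0.880 between the Bmal1-/- libraries and 0.636 to 0.764 across genotypes, over peaks that were all called in each.

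The extremes of that ratio are given as values. The highest were in an intron of Ephx1, an epoxide hydrolase (10.6 and 16.3 tags in WT, 51.8 and 55.5 in Bmal1-/-), and 2780 bp before Trim80 (17.9 and 35.7 against 95.0 and 91.6). At the starts of Zfat and Creg1 the values were 17.1 and 25.6 against 74.6 and 65.5, and 11.4 and 26.4 against 58.9 and 62.2. The lowest was 121876 bp before Trpc7, a cation channel, with 65.1 and 93.9 in WT and 33.0 and 27.4 in Bmal1-/-. Kmt2a, a histone methyltransferase, had 38.2 and 41.9 against 18.8 and 26.7 at its promoter, and the peak 30214 bp after the start of E2f6 had 14.6 and 16.3 against 9.42 and 6.68. These lie against the direction of the median.

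At the edge of the set, the lowest members had 8.13 tags in the first WT library, beside Rbp3, AI661453 and Klf4. The highest peaks of that library outside the set were near Iapp (43.9 tags, in no other list), Tshz2 (39.9) and Llph (28.5). Peaks beside Dock2 (54.3 tags in the second WT library), Gm11077 (52) and Setd1a (41.1) were in the other 3 lists and absent from the first.

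The genes nearest to the shared peaks were expressed more often than protein-coding genes at large. Of 454, 420 were in the TPM table and 382 passed the filter of 1 TPM in at least 3 of 9 libraries, with 38 below it. A mean WT level of at least 1 TPM was reached by 83.0% of the 454, against 54.9% of all annotated protein-coding genes, and 50 TPM by 27.1% against 16.0%. The median WT level was 21.7 TPM over the 420, against 14.6 TPM over protein-coding genes in the table. For genes, a promoter peak was 1 centred from 1000 bp before to 100 bp after the nearest protein-coding start, which 54 genes had. This is narrower than the promoter of any annotated start used for places above. The median WT level was 25.8 TPM for genes with a promoter peak and 12.2 TPM for those nearest to a peak with the repeat.

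Calls in Bmal1-/- cells were an adjusted p under 0.01 (limma, Benjamini-Hochberg) and a change over 2-fold. Of the 382 genes 57 (14.9%) were called, beside 11.8% of the 15031 genes tested. Of these 24 (6.28%) were higher and 33 (8.64%) lower, beside 3.83% and 7.97%. At the adjusted p alone, 88 were higher (23.0%, beside 18.4%) and 96 lower (25.1%, beside 21%). The nearest genes were all protein-coding by choice. Of the 12321 protein-coding genes tested, 21.7% were higher and 21.4% lower at the adjusted p, and 4.36% and 7.23% were called. The median log2 fold change was −0.00, beside −0.04 over all genes and 0.007 over protein-coding genes. In bulk RNA, fewer cells of a kind and less RNA per cell cannot be told apart. In Clock-/- cells, which share the WT libraries, 41 (10.7%) were called beside 7.4%. There 9 (2.36%) were higher and 32 (8.38%) lower, beside 2.62% and 4.78%. At the adjusted p alone 45 were higher (11.8%, beside 9.5%) and 97 lower (25.4%, beside 14.4%), and the median was −0.12 beside −0.02. Over protein-coding genes the shares were 9.92% and 16.1%, with 2.24% and 4.99% called, and the median was −0.04.

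Where a shared peak lay in the promoter of its nearest gene, 6 of 53 tested genes were called lower in Bmal1-/- cells (11.3%, beside 7.97% of all genes tested). Called higher were 0 (beside 3.83%), with 13 higher and 18 lower at an unadjusted p under 0.05 in limma. The 6 were Aox1, Srxn1, AI661453, Me1, Rrp15 and Sgip1. In Clock-/- cells 3 were called lower (5.66%, near the 4.78% of all genes) and 0 higher (beside 2.62%), with 6 and 20 at an unadjusted p under 0.05. The 3 were Gm11992, AI661453 and Gclm, and the change of Gclm was no longer over 2-fold without WT replicate 1 (−0.98), without Clock-/- replicate 2 (−0.93) or with the median of its chromosome subtracted (−0.97). Of 204 genes nearest to a peak with an AP-1 or antioxidant motif, 7 were called higher (3.43%, beside 3.83%) and 24 lower (11.8%, beside 7.97%) in Bmal1-/- cells. In Clock-/- cells 6 were higher (2.94%, beside 2.62%) and 13 lower (6.37%, beside 4.78%). Of 55 nearest to a peak with the repeat, 3 were called higher (5.45%, beside 3.83%) and 8 lower (14.5%, beside 7.97%) in Bmal1-/- cells. For Clock-/- cells it was 0 higher (beside 2.62%) and 8 lower (14.5%, beside 4.78%), with 11 higher and 22 lower at an unadjusted p under 0.05 in limma. Of the 32 tested within 50 kb of a repeat peak, 1 was called higher (3.125%) and 2 lower (6.25%) in Bmal1-/- cells. In Clock-/- cells 0 of these were called higher and 4 lower (12.5%). Across peaks the tag ratio and the RNA change of the nearest gene had a Spearman rho of 0.0942 (n = 407).

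Genes of the antioxidant response, which detoxify oxidants and supply glutathione, thioredoxin and NADPH, formed the list with the largest share nearest to shared peaks. Of 20 listed genes with TPM values, 8 (40.0%) were nearest to a shared peak, beside 2.76% of protein-coding genes in the table, and all 8 had a peak with an AP-1 or antioxidant motif. In Bmal1-/- cells 5 of the 8 fell and 0 rose, with 1 higher at an unadjusted p under 0.05, and in Clock-/- cells 5 fell and 1 rose. The shares over all 15031 genes were 21% lower and 18.4% higher without Bmal1, and 14.4% lower and 9.5% higher without Clock. Their median log2 fold changes were −0.61 and −0.40. Of the 12 listed genes without a shared peak, 3 fell and 4 rose in Bmal1-/- cells and 0 moved in Clock-/- cells (4 higher and 1 lower at an unadjusted p under 0.05), with medians of −0.04 and 0.09. Of these 12, 1 was called higher in Bmal1-/- cells, Nqo1, with mean TPM of 0.669 in WT and 7.12 in Bmal1-/- (2.29, adjusted p = 1.62e-05 in limma). Slc7a11 was the 1 called lower, with 2.83 and 0.290 (−1.57, adjusted p = 8.82e-06).

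WT libraries had 211, 227 and 191 TPM of Hmox1, Bmal1-/- libraries 75.9, 69.1 and 70.1, and Clock-/- libraries 162, 169 and 157. Its log2 fold change was −1.53 (SE 0.08, adjusted p = 3.16e-07) in Bmal1-/- and −0.36 (adjusted p = 0.0044) in Clock-/- cells. Tags at both of its peaks were higher in both Bmal1-/- libraries, as at 328 of the 482 shared peaks, and a link to its RNA was not tested. Srxn1 (sulfiredoxin), with a promoter peak, went from 154, 148 and 146 TPM to 56.3, 54.7 and 54.1 in Bmal1-/- cells (−1.43, adjusted p = 2.16e-07), and changed by −0.43 in Clock-/- cells (adjusted p = 0.000742). Both genes were lower in every knockout library than in every WT library.
Gclm had 122, 118 and 107 TPM with the clock genes intact, 93.9, 105 and 102 without Bmal1, and 56.3, 49.8 and 64.4 without Clock. It fell in Clock-/- cells (−1.02, adjusted p = 3.3e-05, and −0.93 to −0.98 in the 3 settings given above) and did not pass in Bmal1-/- cells (−0.21, adjusted p = 0.0912). Txnrd1 (thioredoxin reductase), whose peak is 19668 bp before its start, went from 241, 221 and 204 TPM to 157, 148 and 158 without Bmal1 and 173, 135 and 182 without Clock, and passed in both knockouts.
Me1 (malic enzyme), Gclc and Pgd (a pentose phosphate enzyme) are named after their values were seen. Me1 fell in both knockouts (−1.09 and −0.67), Gclc fell in Bmal1-/- cells (−0.70, adjusted p = 0.000936) and was at −0.26 in Clock-/- cells (adjusted p = 0.121), and Pgd rose in Clock-/- cells (0.30, adjusted p = 0.00876). Ftl1 (ferritin light chain) was at 2095, 2265 and 2173 TPM in WT and passed in neither knockout (0.26, adjusted p = 0.037, and 0.20, adjusted p = 0.126).

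**Figure D5:**
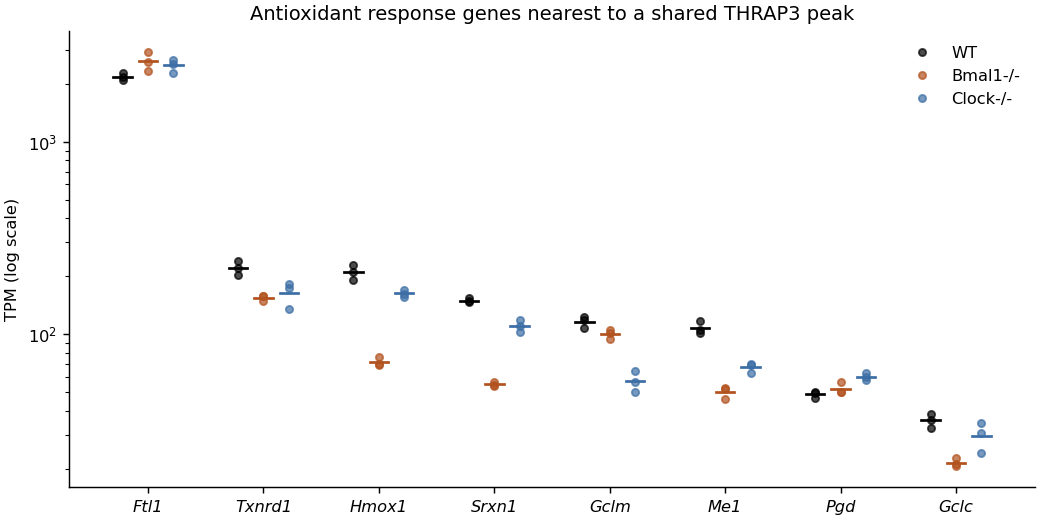
Points give the TPM of each RNA library on a log axis for the 8 antioxidant response genes nearest to a shared peak, and short lines give the mean of the 3 libraries of a genotype. Hmox1 and Srxn1 lie lower in all 3 Bmal1-/- libraries, and Gclm lowest in the Clock-/- libraries.

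AP-1 and immediate early genes had 5 of 29 listed genes (17.2%) nearest to a shared peak, Btg1, Klf4, Klf6, Myc and Nr4a2. Nearest sets no limit of distance, and the Klf6 peak lies 427726 bp before its start. In Bmal1-/- cells 2 of the 5 rose and 2 fell, and in Clock-/- cells 1 rose and 3 fell. The whole list had 26 genes past the filter, of which 15 were lower and 6 higher at the adjusted p without Bmal1 (median −0.89), and 12 lower and 1 higher without Clock (median −0.36), beside the shares over all genes given above. Nr4a2, an orphan nuclear receptor, went from 16.7, 18 and 16.3 TPM to 4.97, 4.58 and 4.90 in Bmal1-/- cells (−1.63, adjusted p = 7.26e-07), and Btg1, which restrains proliferation, rose from 57.6, 55.7 and 50 to 119, 138 and 130 (1.23, adjusted p = 1.43e-06). Of 27 β-cell genes 2 were nearest to a shared peak. Ins1, with a repeat peak 11045 bp before its start, went from 2277, 2359 and 2284 TPM to 61.4, 64.0 and 57.7 in Clock-/- cells (−5.22, adjusted p = 1.76e-10). Ins1 and Ins2 are close paralogs, and how reads were split between them is not stated.
Foxa2, a forkhead factor of the endoderm, was the other, with its peak 301798 bp after its start. Of the remaining lists, cell cycle had 5 of 105 nearest to a shared peak, chaperones 3 of 70, translation factors 2 of 67, histones 2 of 62, SNARE proteins 2 of 94, and clock genes 1 of 24 (Per2). Aminoacyl-tRNA synthetases had 1 of 21, SR proteins and hnRNPs 1 of 46, proteasome subunits 1 of 38, lysosome 1 of 37, oxidative phosphorylation 1 of 83 and cytosolic ribosomal proteins 1 of 88. Mitochondrial ribosomal proteins (77), THRAP3 partners (7), snRNP proteins (50), the unfolded protein response (25) and small RNA hosts (24) had 0.

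Among the other genes nearest to shared peaks, those with the largest rises in Bmal1-/- cells included Jade2 (4.75, 4.31 and 3.24 TPM in WT, 19.6, 17.4 and 18.9 in Bmal1-/-, log2 fold change 1.95) and Ddc, which makes dopamine and serotonin (208, 194 and 191 against 675, 655 and 665, 1.75). Zfp395, Ntm, Mreg, Glis3 and Kit rose by 1.64, 1.61, 1.52, 1.32 and 1.31, and Cited2, a co-factor of CBP, by 1.33 with its peak 829790 bp away. In Clock-/- cells Ntm (−0.97), Glis3 (−1.05) and Kit (−1.06) fell instead. The changes of Glis3 and Kit there were no longer over 2-fold without 1 library, with −0.99 for Glis3 without WT replicate 1 and −0.83 without Clock-/- replicate 2, and −0.99 for Kit without Clock-/- replicate 1. Galnt9, which starts mucin-type glycosylation, fell in both knockouts, from 27.9, 26.6 and 26.7 TPM to 2.58, 2.04 and 2.30 in Bmal1-/- and 1.52, 1.68 and 2.75 in Clock-/- (−3.09 and −3.26). Htatip2 fell from 69.3, 65.2 and 71.7 TPM to 17.1, 16.2 and 16 in Bmal1-/- and 16.3, 15.3 and 14.8 in Clock-/-, and its intronic peak had 19.5 and 37.3 tags in WT against 25.1 and 16.0 in Bmal1-/-.
Ptprn, a protein of insulin granules, went from 1165, 1129 and 1057 TPM to 265, 237 and 260 in Bmal1-/- cells and 649, 526 and 681 in Clock-/- cells, with a peak 536 bp after its start. Cebpb, Brinp2, Kcnh1 (a potassium channel) and Nell1 fell by 1.74, 2.33, 2.19 and 1.67 in Bmal1-/- cells. Cebpb (−0.75) and Nell1 (−1.78) fell in Clock-/- cells too. Brinp2 (−0.31, adjusted p = 0.0718 in limma) and Kcnh1 (0.12, adjusted p = 0.628) did not pass there. Ndn (necdin) went from 11.9, 14.4 and 13.8 TPM to 0, 0.0296 and 0 in Bmal1-/- cells, with its nearest shared peak 263175 bp away. Its level was nearly as low in Clock-/- cells, at 0.353, 0.328 and 0.383 TPM (−3.40).
In Clock-/- cells the falls included Nhlh2, a neuronal bHLH factor (16.9, 15.3 and 13.9 TPM to 0.120, 0.0745 and 0.112), Ambp (84.4, 87.3 and 82.3 to 5.67, 4.01 and 6.02), Tbx3 (−2.51), A1cf (−2.18), Hspb8 (−2.08) and Slitrk1 (−1.97). In Bmal1-/- cells Ambp (0.58), Tbx3 (0.77) and Hspb8 (0.71) rose instead, Slitrk1 fell (−0.70), and A1cf was at −0.52 (adjusted p = 0.106). Rhou rose from 4.84, 4.17 and 3.55 to 23.2, 19 and 24.1 (2.16), and Amer2, the histone Hist1h1c and Gch1, which starts tetrahydrobiopterin synthesis, by 1.86, 1.60 and 1.05. Histone genes as a list were higher in Clock-/- cells, so the rise of Hist1h1c was not particular to genes near shared peaks. Of 58 histone genes tested, 14 were called higher and 0 lower there, with a median of 0.53. Where no adjusted p is printed, that of each gene in this account of rises and falls was below the threshold of 0.01 in limma.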

How the data were processed

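The members and gene lists were chosen with earlier results of these data known. Peaks are the deposited lists, which the authors called per library against the input of the genotype with HOMER (FDR 0.001, at least 4-fold over input) from reads aligned to mm10 with Bowtie2 2.2.4. The authors' tags per peak are a signal scaled to the same total in each library. The deposited lists also give a score, a fold over input as a ratio and, as a fraction, the tags on the expected side of a centre, and the score was not used here. The authors' TPM values are deposited for 20599 genes, with STAR 2.5.0 and featureCounts 1.5.3 named in the submitters' processing notes, and how TPM was computed is not stated. The deposited tables of the authors' DESeq2 1.22.1 comparisons, which hold log2 fold changes and p-values, were not used, and eCLIP and input libraries were not analysed here.

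Peaks were overlapped, placed and searched for motifs with Python 3.11.15, pandas 2.3.3, numpy 2.4.6 and scipy 1.17.1 on GENCODE vM21 and GRCm38, which has the coordinates of mm10, and figures were drawn with matplotlib 3.10.9. limma 3.58.1 (R 4.3.3) was run on log2(TPM + 1) of genes with at least 1 TPM in at least 3 of 9 libraries, with Benjamini-Hochberg adjustment over the 15031 genes that entered. Called means an adjusted p under 0.01 with a change over 2-fold, and rose or fell means that the adjusted p alone passed. A fold change on the log2(TPM + 1) scale understates the change of low genes. The fit was tested on simulated data. Per the study's methods the RNA was taken from triplicate wells of each line. Nothing says that ChIP replicates or wells came from separate cultures or clones, so p-values measure the spread between these samples, which may be technical.

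Named were the 10 peaks with the highest mean tags, the 5 highest and 5 lowest ratios, the peaks at the edge of the set, Thrap3, Arntl and Clock, the 10 member genes that rose and fell most in each knockout, of those called at 5 TPM or more, up to 4 genes of each list by mean TPM, and genes beside the 10 highest peaks. Not every gene that the rule selects is printed. Genes called with a promoter peak are all named, and those outside the rule were named after their values were seen, as were Gclc, Me1, Pgd, Myc, Klf4, Nqo1 and Slc7a11.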

Additional observations from a re-analysis of the deposited data

How the results depend on the processing

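The 482 peaks became 242 when only peaks at least 8-fold over input in each list were used, and stayed within 1.5 times under the other alternatives. The log2 tag ratio of 0.69 became 0.23 as fold over input and turned to −0.041 with the median of the shared peaks set equal in each library. Without 1 library it ranged from 0.36 to 1.06. The median WT level of 21.7 TPM became 25.8 for genes with a promoter peak. For Bmal1-/- cells, the 57 calls (24 higher, 33 lower) became 6 (0 and 6) with a promoter peak, 16 (2 and 14) over every table gene with a start within 1000 bp and 34 (13 and 21) within 50 kb. For Clock-/- cells, the 41 calls (9 and 32) became 3 (0 and 3), 4 (1 and 3) and 25 (4 and 21). Each of these 3 alternatives tests fewer genes, and the 50-kb limit, the windows about the mean centre and the sets without Per2 peaks were chosen after seeing the data.

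The labels do not say whether library replicate numbers pair the samples. Deviations from the group means correlated at −0.208 to 0.0742 for libraries with the same number and at −0.163 to 0.212 for the others. Deviations within a group depend on each other, so these values cannot decide whether samples were paired. The fit with the replicate block gave 57 and 41 calls. Leaving out 1 library gave 52 to 60 calls in Bmal1-/- and 37 to 45 in Clock-/- cells. Of 132 gene and knockout pairs named, 124 kept their side of the thresholds throughout. Clvs1, Gclm, Glis3 and Kit in Clock-/- cells and Klf4 in Bmal1-/- cells lost a call under at least 1 setting. The cause was not tested. The libraries had similar totals of tags, and depth was not varied.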

Other observations

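Per2, which encodes a repressor of CLOCK-BMAL1, held 3 of the shared peaks, all in its exons. They lie at chr1:91423962-91424174, with 21.1 and 70.6 tags in WT and 181.4 and 45.5 in Bmal1-/- libraries, chr1:91427724-91427936, with 10.6 and 34.9 against 96.6 and 28.7, and chr1:91450617-91450829, with 10.6 and 32.6 against 82.5 and 19.4. At each of the 3 peaks the first Bmal1-/- library was the highest, and the second lay below the second WT library. Inside Per2 the 4 libraries had 4, 11, 12 and 9 peaks, and all were centred in exons, which make up 13.5% of the gene. The peaks lay on 4, 10, 12 and 9 of its 24 exons. Per2 was the only gene with peaks on 3 or more exons in each library, among 4, 207, 570 and 549 genes with 3 or more peaks. The screen was chosen after seeing the data. Whether these tags came from the chromosomal gene or from another copy of its exons was not tested. Without the Per2 peaks 479 shared peaks remained, 243 of them with an AP-1 or antioxidant motif.

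With the shared peaks split into 4 bins of mean tags over the 4 libraries, from lowest to highest, an AP-1 or antioxidant motif was in 43.0%, 47.5%, 57.5% and 53.7% of the shared peaks, the extended core GCTGAGTCA in 18.2%, 21.7%, 19.2% and 29.8%, and the repeat in 7.44%, 11.7%, 18.3% and 25.6%. The repeat's share was higher in each next bin, and the other shares were not. As these tags chose the set, the shares are given as a description.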
